A study of Homo sapiens with 7 samples.

Results

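The epidermal growth factor (EGF) receptor family was examined in HK-2 cells, an immortalised human line of kidney proximal tubule epithelium. The 10 genes were set by name: the receptors EGFR, ERBB2 and ERBB3, the ligands TGFA, EREG, AREG, HBEGF, BTC and NRG1, and the receptor inhibitor ERRFI1. All 10 had a row in the count table of 33694 Ensembl genes, and 9 held enough counts to be tested (ERBB3 did not). The cells had been transfected with 50 nM of a scrambled siRNA (4 libraries, replicates 1 to 4, labelled WT) or of an siRNA against GLUT2, the glucose transporter encoded by SLC2A2 (3 libraries, replicates 2 to 4, labelled GLUT2-KD). RNA was taken 96 h later, and both groups had been grown in DMEM/F12 with serum and ITS supplement. The comparison asks which transcripts differ between cells given the GLUT2 siRNA and cells given the scrambled one. No untransfected cells are among the libraries, all come from 1 cell line, and the sources used here give no siRNA sequence.

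EGFR and its relatives are receptor tyrosine kinases that pair with each other once a ligand binds, and then signal through RAS, ERK and AKT. TGFA, EREG, AREG, HBEGF and BTC are made as membrane-anchored precursors that bind EGFR after proteases such as ADAM17 release them, and NRG1 binds ERBB3 and ERBB4. ERBB2 has no known ligand of its own and acts as a partner of the others. In the kidney tubule, EGFR signalling is known for its part in regrowth of the epithelium after injury and, when prolonged, in fibrosis.

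Library totals were 5654957 to 8455963 counts in scrambled and 5881366 to 6914302 in siGLUT2 cells. Counts of SLC2A2 were 13, 13, 7 and 17 in the scrambled libraries and 0 in each siGLUT2 library. With counting error alone in view, a count of 0 allows up to 3 counts. That is 0.434 to 0.510 CPM of the siGLUT2 totals, against a scrambled mean of 1.82 CPM. The siGLUT2 libraries held fewer genes with at least 1 count (13433 to 13891, against 14844 to 15036) and a larger share of mitochondrial counts (7.04% to 7.56%, against 4.91% to 5.53%). The part of these differences in the results below was not tested. Of 18 proximal tubule markers 7 could be tested, with CDH6, PAX8, DPP4, GGT1, SLC4A4 and MME clearly counted, while LRP2, SLC5A1, SLC22A6 and SLC22A8 were at 0 in every library. The 18 summed to 636 to 678 CPM in scrambled and 537 to 573 CPM in siGLUT2 libraries. By the test given below, CDH6 was lower (log2 fold change -0.62), GGT1 (0.57) and MME (0.75) were higher, and 4 were not called. That is 42.9% called, against 28.3% of all tested genes. The 5 endothelial markers were at 0, as were PTPRC and CD3E among the leukocyte markers, whose sum was 0.60 to 1.59 CPM in scrambled and 1.251 to 3.46 CPM in siGLUT2 libraries. The summed level of 7 fibroblast markers was 11.8 to 15.0 CPM in scrambled and 37.9 to 46.2 CPM in siGLUT2 libraries, mostly from LUM and COL1A1, while COL3A1 was at 0 and COL1A2, PDGFRA and DCN had at most 2 counts in all. The 10 markers of other nephron segments summed to 20.9 to 26.8 and 7.33 to 18.6 CPM, nearly all of it SCNN1A and PODXL. Mean SCNN1A was 14.0 CPM in scrambled and 2.42 CPM in siGLUT2 libraries, while PODXL was at 9.04 and 8.85 CPM. In bulk RNA, fewer cells that express a gene and less of its RNA per cell cannot be told apart.

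After siGLUT2, 5 of the 9 tested genes changed. The ligand TGFA fell 3.38-fold, the ligand EREG 1.57-fold and EGFR itself 1.27-fold, while the neuregulin NRG1 rose 1.78-fold and the ligand AREG 1.46-fold. HBEGF, BTC, ERBB2 and ERRFI1 did not pass the test. A change was called at a Benjamini-Hochberg adjusted p below 0.05 over the 12404 genes tested by edgeR (quasi-likelihood). Over all of those, 28.3% were called, 13.9% higher and 14.4% lower, against 55.6% of the 9. The genes were chosen with earlier results of these data known, so the larger share is not independent evidence about the family. Levels are given as CPM, counts relative to library size with scaling by the trimmed mean of M-values. In CPM both groups were fully apart for those same 5 genes and for 35.1% of all tested genes. For each of the 5, the exact two-sided permutation test of mean CPM gave 0.0286, the smallest p that 4 against 3 libraries allow. Groups that are fully apart reach this value or come close to it, so it restates the separation and is no second test.

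**Figure D1:**
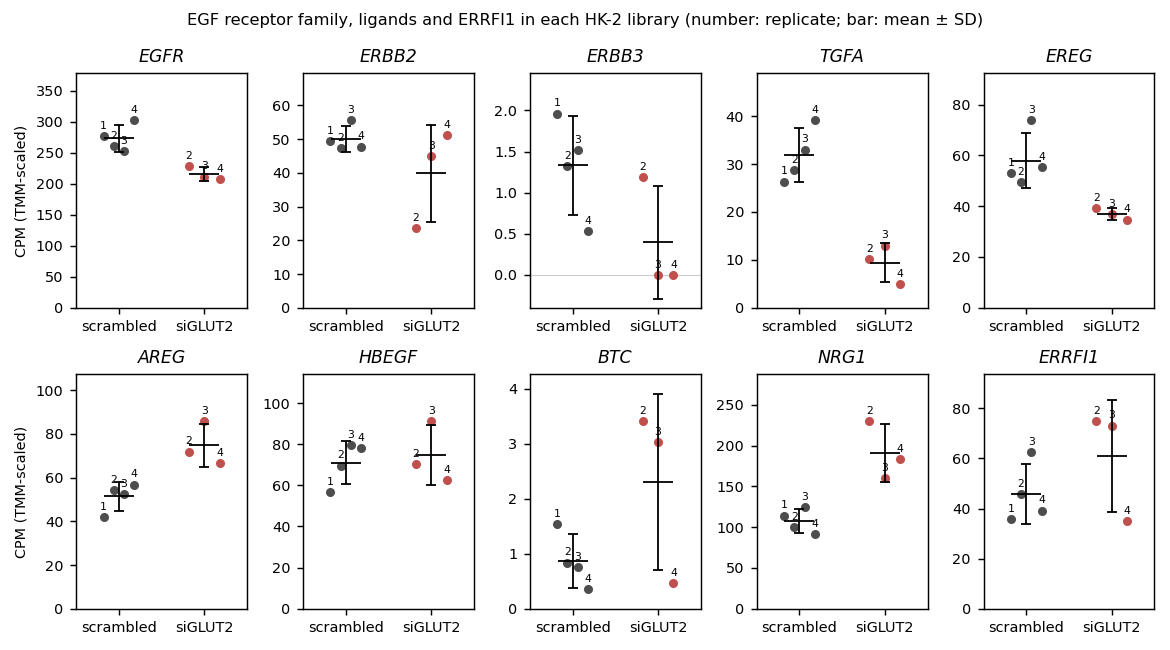
Scaled CPM (linear axes, one per gene) of the 10 genes in 4 scrambled (grey) and 3 siGLUT2 (red) libraries, each point marked with its replicate number and bars giving mean ± SD. The siGLUT2 points lie below all scrambled points for EGFR, TGFA and EREG, above them for AREG and NRG1, and overlap them for the other 5 genes.

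EGFR (ENSG00000146648, GRCh38 chromosome 7, 55019021 to 55211628, plus strand) is the receptor of most ligands described here. Its level was 277, 261, 253 and 302 CPM in scrambled replicates 1 to 4 and 228, 211 and 207 CPM in siGLUT2 replicates 2 to 4. Every siGLUT2 value was below every scrambled value, and the spread within each group was small (coefficients of variation of 8.0% and 5.26%). The means were 273 ± 21.9 (SD, n = 4) and 216 ± 11.3 (SD, n = 3), a log2 fold change of -0.34 ± 0.09 (SE, adjusted p = 0.0070). That adjusted p ranged from 0.0016 to 0.0432 with 1 library left out in turn. Its antisense transcript EGFR-AS1 had 0 counts.

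The 7-base words GACCTTA and ACCTTAA were looked for in the longest annotated 3' UTR of each gene, because an earlier scan of these same fold changes had picked them out. They stand in 1789 (15.4%) of 11621 tested genes with a 3' UTR of at least 50 bases. The median log2 fold change was -0.10 for genes with a word and 0.02 for genes without. EGFR holds each word once in 6011 bases. These are shown because EGFR is one of 3 members with a match, in sequence from GENCODE release 29 (GRCh38, plus strand, chr7:55207460-55207489 and chr7:55208423-55208452), with the words in capitals:
EGFR base 1854 of the 3' UTR: catagatgctaACCTTAAaacaacgtgaca
EGFR base 2817 of the 3' UTR: agttcctggaaGACCTTAccccatgacccc
The words were found on these data, so a match is a description and supports nothing, and whether it bears on the level of EGFR was not tested.

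ERBB2 (ENSG00000141736, chromosome 17, 39687914 to 39730426, plus strand), the partner receptor without a ligand, varied among the siGLUT2 libraries. It was at 49.3, 47.3, 55.7 and 47.8 CPM in scrambled and at 23.7, 45.0 and 51.1 CPM in siGLUT2 libraries. Only siGLUT2 replicate 2 was far below the scrambled values, and replicate 4 lay inside their range. The log2 fold change was -0.32 ± 0.20 (adjusted p = 0.243), and the 95% interval of edgeR's fit ran from 0.602-fold to 1.06-fold of the scrambled level. Without siGLUT2 replicate 4 it was -0.54 with an adjusted p of 0.0477, and without replicate 2 it was -0.06. MIEN1 and PGAP3 on the opposite strand overlap ERBB2. MIEN1 had 1863 counts in all with a log2 fold change of 0.01 ± 0.19, and PGAP3 had 346 with -0.31 ± 0.41 (adjusted p = 0.622). The strand setting of the counting is not given in the sources used here, so reads of that overlap cannot be told apart.

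ERBB3 (ENSG00000065361, chromosome 12, 56076799 to 56103505, plus strand), the neuregulin receptor that signals through partners, was near the limit of detection. Its counts were 14, 11, 12 and 3 in scrambled and 7, 0 and 0 in siGLUT2 libraries. A count of 0 allows up to 3 counts, or 0.434 and 0.466 CPM of the totals of siGLUT2 replicates 3 and 4, with counting error alone in view. ERBB4, the other neuregulin receptor, had 1 count in 7 libraries. In a fit without the low-count filter the log2 fold change was -1.75 (adjusted p = 0.426). Without siGLUT2 replicate 2 the gene was called lower (adjusted p = 0.0330), with both remaining siGLUT2 libraries at 0.

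TGFA (ENSG00000163235, chromosome 2, 70447280 to 70554193, minus strand), transforming growth factor alpha, had the largest decrease of the called genes here. Its counts were 188, 239, 261 and 222 in scrambled and 60, 90 and 32 in siGLUT2 libraries, or 26.3, 28.7, 33.0 and 39.2 against 10.2, 13.0 and 5.0 CPM. The highest siGLUT2 value was less than the lowest scrambled value, and siGLUT2 replicate 4 was the lowest of all. Means were 31.8 ± 5.63 (SD, n = 4) and 9.40 ± 4.05 CPM (SD, n = 3), a log2 fold change of -1.75 ± 0.27 (adjusted p = 4.08e-05). With 1 library left out in turn the change stayed between -2.07 and -1.45. Neither 7-base word stands in its 3' UTR of 3579 bases.

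EREG and AREG are neighbours on chromosome 4 and changed in opposite directions. EREG (ENSG00000124882, GRCh38, 74365143 to 74388751, plus strand) encodes epiregulin, and AREG (ENSG00000109321, 74445134 to 74455009, plus strand) encodes amphiregulin, both EGFR ligands, with starts 80.0 kb apart. The 250 bases before each start are shown because these neighbours moved apart (RefSeq, GRCh38.p14, plus strand, chr4:74364895-74365144 and chr4:74444886-74445135). Capitals mark TATAAA, searched on the gene's strand, and TGACGTCA, the cyclic AMP response element, searched on both strands:
EREG: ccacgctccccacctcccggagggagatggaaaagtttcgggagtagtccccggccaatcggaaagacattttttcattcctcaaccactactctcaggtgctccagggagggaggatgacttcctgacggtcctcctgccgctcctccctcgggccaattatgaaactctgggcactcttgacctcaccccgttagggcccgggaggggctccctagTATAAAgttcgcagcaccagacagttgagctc
AREG: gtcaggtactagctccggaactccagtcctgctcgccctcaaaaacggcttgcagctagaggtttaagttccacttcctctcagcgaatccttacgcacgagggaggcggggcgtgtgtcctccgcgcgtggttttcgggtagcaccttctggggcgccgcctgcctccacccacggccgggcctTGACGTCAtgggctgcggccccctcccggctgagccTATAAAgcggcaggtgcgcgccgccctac
TATAAA begins at -32 in EREG and at -29 in AREG, and is found in 7.33% of 35116 RefSeq windows from 250 bases before to 50 after a gene start. TGACGTCA begins at -65 in AREG, is not found in the EREG window, and is found in 1.85% of all windows. The AP-1 motif TGANTCA (both strands, 7.71% of windows) is in neither. CCAAT (both strands, 34.6%) is found in EREG alone of this pair, at -196 and -95, as is GGAATG, a TEAD motif (both strands, 14.0%), at -175. GGGCGG (both strands, 45.0%) is found in AREG alone, at -9. A match is a description of these letters and no measurement of binding.

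EREG was at 53.0, 49.4, 73.9 and 55.4 CPM in scrambled and at 39.2, 36.7 and 34.7 CPM in siGLUT2 libraries. The siGLUT2 values lay close together and below all scrambled values, of which replicate 3 was the highest. Means were 57.9 ± 10.9 (SD, n = 4) and 36.9 ± 2.26 CPM (SD, n = 3), a log2 fold change of -0.65 ± 0.16 (adjusted p = 0.0044, and 0.0323 without scrambled replicate 3). Its 3' UTR of 3943 bases holds GACCTTA once and ACCTTAA 5 times, overlaps included. A pair of these places, the first with both words overlapping and the other with ACCTTAA repeated, is shown (GENCODE release 29, GRCh38, plus strand, chr4:74386498-74386527 and chr4:74387899-74387928), words in capitals:
EREG base 1701 of the 3' UTR: tatgtatacatGACCTTAAtggatcataga
EREG base 3102 of the 3' UTR: agatttccttaACCTTAACCTTAAaattga

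AREG was at 41.9, 54.4, 52.5 and 56.8 CPM in scrambled and at 72.0, 85.9 and 66.6 CPM in siGLUT2 libraries. All siGLUT2 values were above all scrambled values, with replicate 3 the highest. Means were 51.4 ± 6.58 (SD, n = 4) and 74.8 ± 9.95 CPM (SD, n = 3), a log2 fold change of 0.54 ± 0.15 (adjusted p = 0.0070). Without siGLUT2 replicate 3 the change was 0.43 and the adjusted p 0.0544, so the call was lost and the direction kept. Its 3' UTR of 269 bases holds neither word.

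The ratio of AREG to EREG counts within a library needs no scaling between libraries. It was 0.791, 1.10, 0.711 and 1.03 in scrambled and 1.83, 2.34 and 1.92 in siGLUT2 libraries. The groups did not overlap, and these ratios are a description because both genes were tested on their own. Across the neighbourhood, from 500 kb before EREG to 500 kb after BTC, 7 of 19 genes could be tested. Of these 2 were called higher and 2 lower, or 57.1%, beside the 28.3% called over all tested genes. The window was set around the ligand genes and its calls include EREG and AREG, so this share is not independent of them. Besides this pair, the neutrophil chemokine gene CXCL2 rose (1.48 ± 0.34, adjusted p = 0.0020) and CXCL5 fell (-0.54 ± 0.20, adjusted p = 0.0445). EPGN, the ligand gene that precedes EREG, had 0 counts in 7 libraries.

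**Figure D2:**
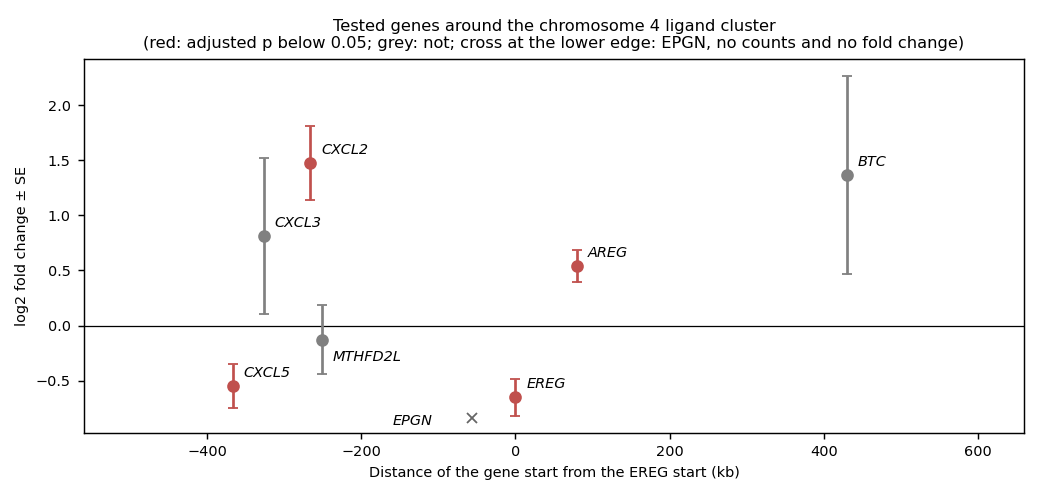
Log2 fold change ± SE (siGLUT2 over scrambled) of the 7 tested genes around the chromosome 4 ligands against the distance of their start from the EREG start in kb, red where the adjusted p was below 0.05. EREG lies at -0.65 and AREG, 80.0 kb away, at 0.54, and the cross at the lower edge marks the place of EPGN, which had no counts and no fold change.

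HBEGF (ENSG00000113070, chromosome 5, 140332843 to 140346631, minus strand), the heparin-binding ligand of EGFR and ERBB4, did not differ beyond its spread. It was at 56.8, 69.6, 79.7 and 78.0 CPM in scrambled and at 70.4, 91.2 and 62.5 CPM in siGLUT2 libraries, with the groups mixed. Means were 71.0 ± 10.5 (SD, n = 4) and 74.7 ± 14.8 CPM (SD, n = 3), a log2 fold change of 0.08 ± 0.15 (adjusted p = 0.754). The 95% interval ran from 0.85-fold to 1.31-fold of the scrambled level, so a larger change lies outside it.

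BTC (ENSG00000174808, chromosome 4, 74744759 to 74794686, minus strand), betacellulin, was counted 11, 7, 6 and 2 times in scrambled and 20, 21 and 3 times in siGLUT2 libraries. The siGLUT2 libraries were split, with replicates 2 and 3 above all scrambled libraries and replicate 4 among the lowest in CPM. The log2 fold change was 1.36 ± 0.90 (adjusted p = 0.28), and its 95% interval, from 0.706-fold to 9.39-fold, left the direction undetermined at this depth. EGF, the founding ligand of the family, had 2, 24, 6 and 2 counts in scrambled and 9, 1 and 1 in siGLUT2 libraries, and was not tested. NRG2, NRG3 and NRG4 had 0 counts in 7 libraries.

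The 5 EGFR ligands that were tested summed to 179.5, 203, 239.8 and 229.6 CPM in scrambled and to 195, 229.8 and 169 CPM in siGLUT2 libraries, with the groups overlapping. Within that sum TGFA took 14.7%, 14.1%, 13.8% and 17.1% of counts in scrambled and 5.24%, 5.64% and 2.95% in siGLUT2 libraries. AREG took 21.9% to 26.8% and 36.9% to 39.3%, and EREG 24.1% to 30.8% and 15.99% to 20.5%. HBEGF took 31.6% to 34.3% and 36.1% to 39.7%, although its own CPM values overlapped. The shares of these 4 ligands did not overlap between groups, which describes values already tested gene by gene, and shares of 1 sum are not independent.

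NRG1 (ENSG00000157168, chromosome 8, 31639386 to 32767959, plus strand), neuregulin 1, had the smallest adjusted p of the 9 genes. It was at 114, 99.9, 125 and 91.2 CPM in scrambled and at 230.1, 160.2 and 184 CPM in siGLUT2 libraries. Every siGLUT2 library exceeded every scrambled one, with replicate 2 the highest. Means were 107.5 ± 14.9 (SD, n = 4) and 191 ± 35.5 CPM (SD, n = 3), a log2 fold change of 0.83 ± 0.13 (adjusted p = 3.11e-05), which stayed between 0.67 and 0.94 with 1 library left out. Its 3' UTR of 3557 bases holds ACCTTAA once. Of the receptors that bind NRG1, ERBB3 had 47 counts over 7 libraries and ERBB4 had 1.

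ERRFI1 (ENSG00000116285, chromosome 1, 8004404 to 8026308, minus strand), also known as MIG6, binds the kinase domain of EGFR and ERBB2 and is made in response to their signal as a feedback inhibitor. It was at 35.9, 45.7, 62.5 and 39.2 CPM in scrambled and at 74.9, 73.1 and 35.03 CPM in siGLUT2 libraries. Replicates 2 and 3 of siGLUT2 were above all scrambled values, and replicate 4 was below all of them. The log2 fold change was 0.41 ± 0.22 (adjusted p = 0.183, 95% interval 0.965-fold to 1.83-fold). Without siGLUT2 replicate 4 it was 0.68 with an adjusted p of 0.0051, so that library decides the call.

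Replicate 4 was the lowest of the 3 siGLUT2 libraries for 7 of the 9 tested genes. This order was not counted over all tested genes, so it cannot be called particular to the family. When it was left out, 8 of the 9 had fully separate CPM ranges, against 5 with all libraries. The share over the same 12404 genes rose as well, from 35.1% to 46.4%, and 3778 genes were called in that fit, against 3509 with all libraries. The 5 genes called with all libraries remained called without it, and ERBB2 and ERRFI1 were then called as well.

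**Figure D3:**
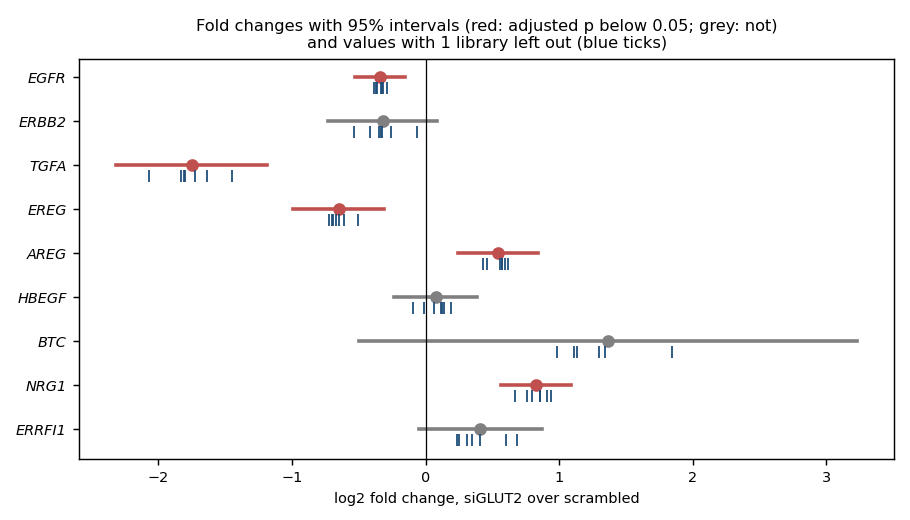
Log2 fold change, siGLUT2 over scrambled, of the 9 tested genes (dots) with the 95% interval of edgeR's fit (lines, red where the adjusted p was below 0.05), and blue ticks for the values with 1 library left out. TGFA, EREG and EGFR stay left of 0 and AREG and NRG1 right of it in every such fit, while the ticks of HBEGF lie on both sides.

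The profiles over 7 libraries were compared with those of 10276 other genes whose mean reached 5 CPM, by the root mean square difference of log2 CPM after each profile was centred on its scrambled mean. Closest to EGFR were GNA12, a G protein alpha subunit (0.0322), HS3ST3A1, a heparan sulfate sulfotransferase (0.0359), and CWC15, a spliceosome protein (0.0535). Closest to ERRFI1 were RFK, riboflavin kinase (0.127), SRXN1, sulfiredoxin (0.174), and ADO, a thiol dioxygenase (0.184).

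Genes that release ligands or hold them at the surface were next examined. Of 12 in the list 9 were tested, 3 rose and 0 fell (0 also at an unadjusted p below 0.05, by DESeq2 and by limma-voom), with a median log2 fold change of 0.29 against -0.0029 over all tested genes. The 33.3% called stands beside 28.3% of all tested genes called and 13.9% called higher. CD44, a hyaluronan receptor whose variants carry HBEGF, rose from 107 ± 12.6 to 231 ± 7.8 CPM (1.11 ± 0.10, adjusted p = 5.49e-08). The inactive rhomboids RHBDF1 (0.77 ± 0.26) and RHBDF2 (0.52 ± 0.18), which carry ADAM17 to the surface, rose as well, and without scrambled replicate 1 the count was 1. ADAM12 was at 5.64 ± 2.29 and 11.2 ± 4.23 CPM (adjusted p = 0.0607). ADAM17, the protease that releases most of these ligands, was at 185 ± 7.54 and 178 ± 22.8 CPM (adjusted p = 0.712).

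Among 22 genes of the receptor adaptors and the RAS-ERK core, all tested, 1 rose and 5 fell, with a median of -0.00087. The 27.3% called is near the 28.3% called over all tested genes. NF1, a RAS inhibitor, fell from 80.0 ± 6.21 to 26.3 ± 8.42 CPM (-1.61 ± 0.18, adjusted p = 7.49e-07). The kinases MAP2K2 (-0.93 ± 0.11) and MAPK3, or ERK1 (-1.32 ± 0.24), and the exchange factor SOS2 (-1.25 ± 0.24) fell. NRAS was the 1 gene that rose (0.58 ± 0.12) and is named because of that count, after its value was seen. The count of rises was 2 without scrambled replicate 3 or siGLUT2 replicate 2, and 3 without siGLUT2 replicate 4.

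Of 25 genes for receptor endocytosis, ubiquitination and inhibition 24 were tested, and 4 rose and 4 fell, with a median of 0.18. The 33.3% called is close to the 28.3% over all tested genes. The receptor phosphatase PTPRK, which acts on EGFR, rose from 19.6 ± 2.45 to 60.6 ± 3.86 CPM (1.63 ± 0.17, adjusted p = 1.90e-07). SH3KBP1, the CBL-binding adaptor CIN85, rose (0.81 ± 0.09). USP8, a deubiquitinase of endosomal receptors, fell (-0.95 ± 0.19), as did the phosphatase PTPN1 (-0.41 ± 0.09).

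Of 20 transcripts known to follow EGFR and ERK activity in other systems 18 were tested, and 10 rose and 1 fell, with a median log2 fold change of 0.84. In this list 61.1% were called and 55.6% were higher, against 28.3% and 13.9% of all tested genes. PHLDA1 rose from 113 ± 8.81 to 302 ± 14.2 CPM (1.41 ± 0.09, adjusted p = 3.33e-10) and cyclin D1, CCND1, from 31.4 ± 9.69 to 108 ± 6.88 CPM (1.78 ± 0.18, adjusted p = 1.25e-07). The ERK phosphatases DUSP5 (17.5 ± 1.51 to 49.5 ± 10.6 CPM) and DUSP6 (19.3 ± 2.97 to 55.7 ± 20.3 CPM, 1.52 ± 0.21) rose. EGR1, an immediate early factor, was the 1 gene called lower (59.8 ± 5.83 to 27.0 ± 8.37 CPM, -1.14 ± 0.19) and is named for that count, after its value was seen. At an unadjusted p below 0.05 there were 14 genes, 2 of them lower. ETV4 (-1.09 ± 0.44, adjusted p = 0.0713) and FOS (-1.37 ± 0.67, adjusted p = 0.138) lay below all scrambled libraries without being called. EPHA4 (0.68 ± 0.27, adjusted p = 0.0634) lay above them, also without being called. The count of falls was 2 without siGLUT2 replicate 2 or 3. The list was chosen with results of these data known, so its direction is not independent evidence.

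**Figure D4:**
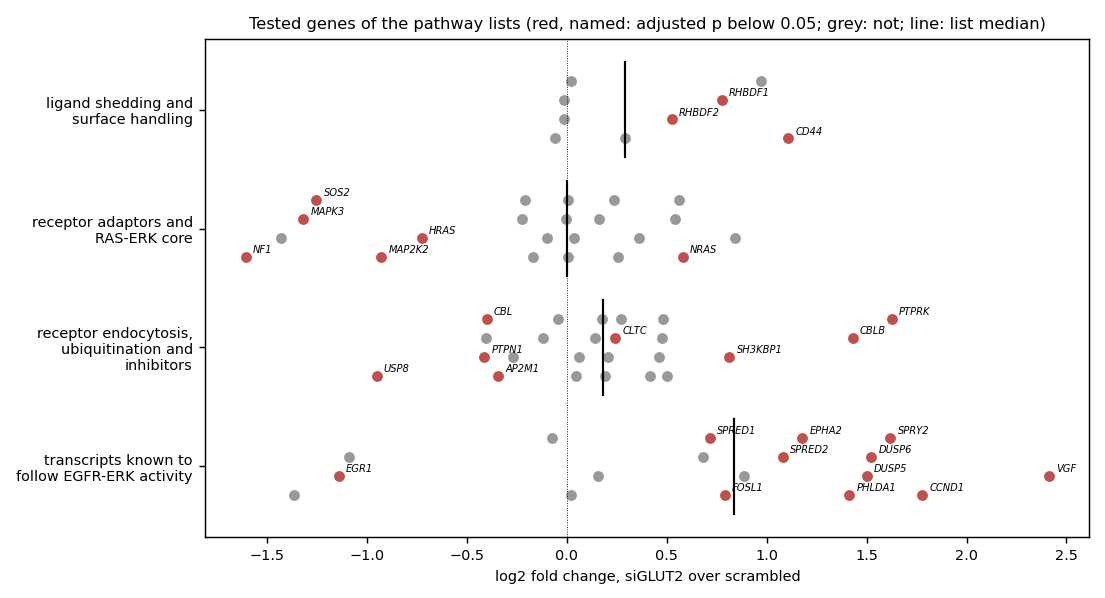
Log2 fold change, siGLUT2 over scrambled, of the tested genes of 4 pathway lists (1 dot per gene, red and named where the adjusted p was below 0.05) with the list median as a line. The medians are 0.29, -0.00087, 0.18 and 0.84 from top to bottom, and red dots lie on both sides of 0 in 3 of the 4 lists.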

How the data were processed

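Total RNA of 7 HK-2 cultures was sequenced with a commercial 3' digital mRNA-seq service, single-end, per the labels' protocols. The authors deposited raw counts per Ensembl gene, in whole numbers, with no normalization. The submitters' processing notes name STAR, HTSeq, edgeR and hg38, with no version. The sources used here give neither annotation release, strand setting nor molecular identifiers, and reads without identifiers are not independent molecules, so floors cover counting error only. A 3' method measures no splice form. All 7 value columns matched a sample title.

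All 7 libraries entered 1 quasi-likelihood fit (edgeR 4.0.16, R 4.3.3; glmQLFit and glmQLFTest, robust, no covariates) after TMM scaling. The filter filterByExpr took a minimum count of 10 and a minimum total of 15. Adjusted p-values are Benjamini-Hochberg over 12404 genes, called below 0.05. Scripts were tested on simulated data. There edgeR called 16 of 67 genes with a simulated 1.5-fold change, 43 of 67 with 2-fold and 58 of 66 with 4-fold. That run made 123 calls in all, against 3509 in the 7 libraries. Benjamini-Hochberg adjustment is stricter where fewer genes are called, so these shares do not carry over to the 7 libraries. The share recovered in the 7 libraries was not tested. A gene that was not called can still have changed by a small fold. Positions and 3' UTRs came from GENCODE release 29, and promoters of 8 of the 10 genes from a RefSeq table. ERBB3 had no entry there, and NRG1, on chromosome 8, was left out of the promoter search. Log2 CPM used a prior count of 2.

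The members and lists were chosen with earlier results of these data known. Named were all 10 genes, SLC2A2, the 6 other family genes, up to 4 tested genes per pathway list with the smallest adjusted p (up to 2 with the highest CPM where fewer than 2 passed), and the 3 genes closest in profile to EGFR and to ERRFI1. ADAM17, NRAS, EGR1, ETV4, FOS, EPHA4, CXCL2 and CXCL5 fall outside this rule and were named after their values were seen. Alternatives were DESeq2 1.42.0, limma-voom 3.58.1, 3 other scalings, 2 other low-count filters, non-robust estimation, an adjusted p of 0.01, a replicate block and each library left out. As all libraries come from 1 line, p-values measure only the spread among its biological replicates, as the labels call them.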

Additional observations from a re-analysis of the deposited data

How the results depend on the processing

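EGFR, TGFA, EREG and NRG1 kept their direction and their call in all 17 alternatives. AREG kept its direction in all 17 and was not called in 2. HBEGF, which was not called, turned negative with the replicate block (-0.032) and in 2 of the fits without 1 library, which ranged from -0.10 to 0.19. SLC2A2 was called in 12 of the 13 alternatives that tested it. With 1 library left out, members called higher numbered 1 to 3, members called lower 3 to 4, pathway genes called 23 to 32 (28 with all), all genes called 2796 to 3778 (3509 with all), and members without overlap 5 to 8. At an adjusted p of 0.01, 2264 genes were called in all. The lists moved by over 1.5 times in these settings: rises in the RAS-ERK list were 2 with limma-voom or without the low-count filter, rises among ligand release genes were 1 at an adjusted p of 0.01 and with the block, and rises among endocytosis genes were 2 at 0.01.

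Replicate numbers 2 to 4 occur in both groups, but nothing says that they pair cultures, and deviations of same-numbered libraries did not correlate over genes (0.0095, 0.0152 and -0.0032). With the replicate block 1 member was called higher and 3 lower, AREG had an adjusted p of 0.0635 and SLC2A2 of 0.0577, and 2649 genes were called in all.

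Depth limits ERBB3, BTC, EGF and the targeted gene SLC2A2, each with at most 24 counts in any library.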
